A study of Mus musculus with 18 samples.

Results

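The 3 genes described here encode the ADAR family of adenosine deaminases acting on RNA, and they were found in a deposited table of 48440 genes by their symbols, Adar, Adarb1 and Adarb2. Adarb1 had been chosen by measured values of these libraries, namely its high level in the tissue named MDTH and its higher level in high performers there, so its values in MDTH are a description of that choice. For all 3 genes the comparison of high with low performers in MDTH, and the comparisons of MDTH with the other tissues, are therefore given with their errors and no test. The samples were brain tissue of Diversity Outbred mice, a stock bred from several founder strains so that no pair of animals shares a genome, in a study of short term memory. RNA was sequenced from 18 libraries in 6 groups of 3: high performers and low performers in the prefrontal cortex (PFC), in MDTH and in HPF. The labels give no age, sex, treatment or behavioural test, and do not spell out MDTH or HPF. In PFC and MDTH the library names of high performers are written in lower case and those of low performers in capitals. In HPF the letters after the number in the name are FF or EF in high performers and BA or BD in low performers. Performance and any difference in preparation between these sets of libraries therefore cannot be told apart in any tissue.

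ADAR enzymes convert adenosine to inosine in double-stranded RNA, and inosine is read as guanosine by the ribosome and by reverse transcriptase. Adar encodes ADAR1, which is present in most tissues, has an interferon-induced form and marks the cell's own double-stranded RNA so that innate sensors do not respond to it. Adarb1 encodes ADAR2, the enzyme that recodes the pore of the AMPA receptor subunit GluA2 in neurons. Adarb2 encodes ADAR3, a brain protein that binds RNA but has no known deaminase activity. The table holds RNA levels of genes only, so editing itself was not measured.

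To show what these enzymes act on, the RNA sense sequence around 2 well-known sites was read from mouse build GRCm38, 5′ to 3′, with the edited adenosines in capitals. The first lies in exon 11 of 16 of Gria2, at chr3:80706893-80706922 on the minus strand, and holds the glutamine codon of the GluA2 pore whose A is the main ADAR2 substrate. The second lies in exon 6 of 7 of Htr2c, at chrX:147169680-147169709 on the plus strand, where 5 adenosines in the coding sequence of a serotonin receptor are edited by ADAR1 and ADAR2.
Gria2: gcctttatgcAgcaaggatgcgatatttcg
Htr2c: gtagcaAtAcgtAAtcctAttgagcatagc

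In the GENCODE M21 annotation of GRCm38, Adar (ENSMUSG00000027951) spans positions 89715022 to 89753446 of chromosome 3 on the plus strand. Adarb1 (ENSMUSG00000020262) spans 77290726 to 77418270 of chromosome 10 on the minus strand. Adarb2 (ENSMUSG00000052551) spans 8202866 to 8768747 of chromosome 13 on the plus strand. Exon sequence of Adar overlaps the span of Chrnb2, a nicotinic receptor gene on the opposite strand. Whether it overlaps exons of Chrnb2 was not checked. Whether strand was used in counting is not given in the sources used here, so Adar levels may hold reads of Chrnb2.

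Because Adarb1 and Adarb2 were both higher in MDTH high performers, the 250 bases before the RefSeq start of each are shown, from the promoter windows of GRCm38.p6. Each window has 300 bases, 250 before and 50 after the start. The Adarb1 bases lie at chr10:77418274-77418523 on the minus strand, and the capitals mark the single match to TGACG, the core of the cAMP response element, read here on the opposite strand, which overlaps no match to the other motifs searched. The Adarb2 bases lie at chr13:8202616-8202865 on the plus strand and hold no match to TGACG.
Adarb1: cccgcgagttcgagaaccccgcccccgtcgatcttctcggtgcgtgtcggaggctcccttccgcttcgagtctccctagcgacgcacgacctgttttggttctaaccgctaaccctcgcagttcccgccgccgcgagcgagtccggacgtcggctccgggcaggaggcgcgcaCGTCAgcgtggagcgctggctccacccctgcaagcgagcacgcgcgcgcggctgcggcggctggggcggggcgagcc
Adarb2: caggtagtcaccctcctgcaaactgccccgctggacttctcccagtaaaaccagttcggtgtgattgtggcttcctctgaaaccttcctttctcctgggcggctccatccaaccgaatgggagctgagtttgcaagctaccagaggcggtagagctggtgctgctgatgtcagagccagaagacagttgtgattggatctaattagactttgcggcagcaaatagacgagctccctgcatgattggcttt

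The Adarb1 window was 73.0% G or C and held 46 CpG, against a median of 52.7% and 7 CpG over all 32851 promoter windows in the table. The Adarb2 window, at 52.7% G or C and 9 CpG, lay near that median. On both strands, TGACG was found in 20.8% of all windows, the GC box GGGCGG in 35.7% and the interferon response core GAAANNGAA in 8.56%. The GC box had 3 matches in the Adarb1 window and 1 in the Adarb2 window. The interferon core was found in neither. It was present, with 2 matches, in 1 of the 3 Adar windows, the one that starts at position 89730468 of chromosome 3.

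Library depth, estimated from the worth of 1 read among low values, ran from 41156227 reads, in a PFC library, to 88633852, in an HPF library, and all HPF libraries were deeper than those of the other tissues. The HPF library names are also written in another form than those of PFC and MDTH. In every comparison of HPF with another tissue, tissue and any difference in preparation or sequencing cannot be told apart. The tissue names were checked against markers. The summed level of 10 thalamic relay neuron markers was 138221 to 337527 normalized counts in MDTH, 11343 to 14315 in PFC and 11696 to 27395 in HPF. Slc17a7, the glutamate transporter of cortical and hippocampal neurons, was at 73899 to 85224 in PFC and at 3283 to 18331 in MDTH. The 8 hippocampal markers summed to 46457 to 80093 in HPF and to at most 19737 elsewhere. The HPF library of high performer 2 stood apart, with 2984 normalized counts of Tcf7l2, a thalamic transcription factor, against 151 to 301 in the other 5 HPF libraries. It also held 151267 of Ttr, a choroid plexus transcript, against 2986 to 7990. Choroid plexus and ependymal markers were also high in 3 PFC libraries, with sums of 146355 in high performer 1 and of 124424 and 75586 in low performers 2 and 3, against 1902 to 4831 in the other 3. In HPF, Fibcd1, a marker of hippocampal pyramidal cells, was at 5064 to 7333 in high performers and at 1036 to 1994 in low performers.

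Adarb1, the gene for ADAR2, was among the most abundant transcripts of MDTH and was higher there in high performers. The 3 MDTH high performer libraries held 85928, 90235 and 100813 normalized counts of Adarb1. The 3 MDTH low performer libraries held 51708, 28124 and 29405. All high performers lay above all low performers, the lowest of the former 1.66-fold above the highest of the latter, and low performer 1 stood nearer to the high performers than its group did. Group means were 92325 ± 7660 (SD, n = 3) and 36412 ± 13262 (SD, n = 3), a 2.54-fold difference. On the log2(normalized count + 1) scale the difference was 1.40 with a standard error of 0.23, above that of 97.9% of the 17861 genes tested in MDTH. By mean normalized count Adarb1 ranked 36 of 48440 genes in MDTH high performers, with 0.163% of all normalized counts, and 139 in MDTH low performers. The background is wide: in MDTH 22.2% of genes tested had all high performers above all low performers, and 25% passed the test in either direction.

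Outside MDTH, Adarb1 was lower and nearly level. The PFC libraries held 14328, 12961 and 12700 normalized counts in high performers and 12709, 12081 and 12809 in low performers. The HPF libraries held 11867, 14577 and 9711 in high performers and 13943, 13355 and 12928 in low performers. The 4 group means, from 12052 to 13409, had overlapping libraries. The highest HPF value came from high performer 2, the library with thalamic and choroid transcripts. The mean over the 6 MDTH libraries was 4.98-fold that of the 6 PFC libraries and 5.06-fold that of the 6 HPF libraries. In the fit to all libraries the log2 difference was 2.14 against PFC (SE 0.13) and 2.17 against HPF (SE 0.13).

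The high minus low difference of Adarb1 did not pass the test in PFC or in HPF. In PFC it was 0.09 in log2 (SE 0.08, 95% interval -0.09 to 0.27, limma adjusted p = 0.523), and 0.034 without PFC high performer 1. In HPF it was -0.17 (SE 0.14, 95% interval -0.51 to 0.17, limma adjusted p = 0.639), with -0.32 without HPF high performer 2 (limma adjusted p = 0.296) and -0.027 without HPF high performer 3 (limma adjusted p = 0.963). The upper bounds of 0.27 and 0.17 lay below the MDTH difference of 1.40, but whether the effects differ between MDTH and these tissues was not tested, since the MDTH values chose the gene. In these fits 5.85% of genes passed in PFC and 0.0166% in HPF. The PFC count of 1053 genes fell to between 7 and 278 without any library but low performer 2, and the MDTH count of 4470 to between 1839 and 2800 without high performer 2 or 3 or low performer 2 or 3. In HPF the count of 3 rose to 6, 7 and 15 without high performer 3, low performer 1 and low performer 2, and fell to 0 without high performer 1. The difference between HPF and PFC over all performers was -0.03 (SE 0.13, 95% interval -0.31 to 0.24, limma adjusted p = 0.861), and its sign changed with the scaling.

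Some libraries share a number in their names across tissues. Within those numbers the excess of Adarb1 in MDTH over PFC was 5.997-fold, 6.96-fold and 7.94-fold for the 3 high performers numbered 44, 88 and 165, and 4.07-fold for low performer 130. The excess over HPF was 5.89-fold, 9.29-fold and 8.50-fold for the same high performers and 2.02-fold for low performer 163. In every number, Adarb1 in MDTH was above each tissue it could be compared with, with the smaller excess in both low performers. These ratios rest on the MDTH values that chose the gene, so they describe that choice and give it no further support.

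**Figure D1:**
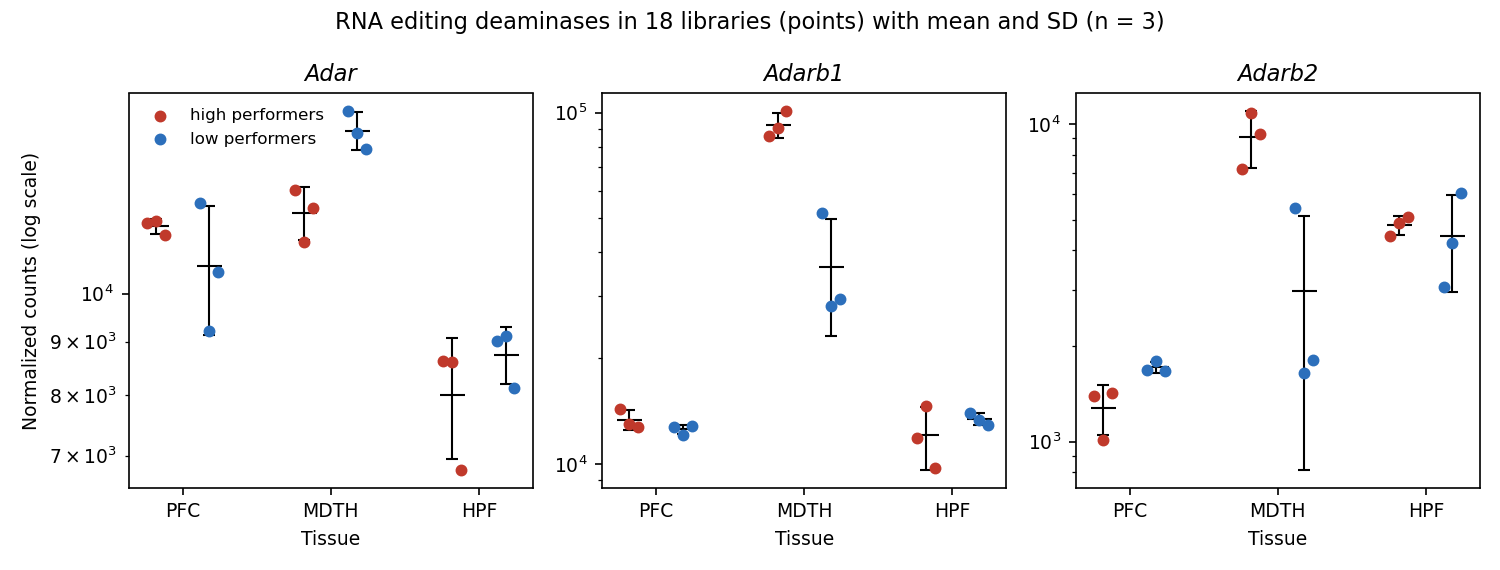
Normalized counts of Adar, Adarb1 and Adarb2 (log scale, a separate axis range for each gene) in the 18 libraries by tissue, high performers in red and low performers in blue, with the mean and SD of each group of 3. In MDTH the Adarb1 points of high performers lie at 85928 to 100813 and those of low performers at 28124 to 51708, while all other Adarb1 points lie at 14577 or less.

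Adarb2, the gene for the RNA-binding family member ADAR3, was also higher in high performers of MDTH, and lay the other way in PFC. In MDTH the high performers held 7199, 10843 and 9318 normalized counts and the low performers 5454, 1641 and 1810. No values overlapped, as for the 22.2% of genes in MDTH with all high performers above all low performers, and low performer 1 was again the highest of its group. The means, 9120 ± 1830 and 2969 ± 2154 (SD, n = 3 each), differed 3.07-fold, and the log2 difference was 1.83 with a standard error of 0.44. It lay above that of 99.0% of the genes tested in MDTH. Without MDTH low performer 1 the log2 difference was 2.38.

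In PFC, Adarb2 was at 1394, 1011 and 1426 normalized counts in high performers and at 1685, 1797 and 1670 in low performers. All high performers lay below all low performers, as they did for 13.8% of the 17991 genes tested in PFC. The low performer mean of 1717 ± 69.5 was 1.34-fold above the high performer mean of 1277 ± 231 (SD, n = 3 each). The log2 difference of -0.44 (SE 0.15, 95% interval -0.79 to -0.10) did not pass after adjustment over all genes (limma adjusted p = 0.126, 0.102 to 0.442 over the alternatives). Without PFC high performer 2 it was -0.28. In cortex Adarb2 marks a class of interneurons of caudal origin, and the summed level of 10 markers of that class, from 31353 to 34618 in high and 29610 to 34265 in low performers, overlapped between the PFC groups. The part of those cells in the Adarb2 difference was not tested.

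In HPF the Adarb2 values overlapped, at 4442, 4868 and 5081 in high performers and 3076, 4231 and 6055 in low performers. The log2 difference was 0.16 (SE 0.22, 95% interval -0.37 to 0.69, limma adjusted p = 0.795), and it was -0.080 without HPF low performer 1. Adarb2 was higher in HPF than in PFC, by 1.62 in log2 (SE 0.24, 95% interval 1.10 to 2.14, limma adjusted p = 5.74e-05), a 3.09-fold difference of the 6-library means, with all 6 HPF libraries above all 6 PFC libraries. That comparison called 45.5% of all genes, and 9.87% had all HPF libraries above all PFC libraries. Tissue and set of libraries cannot be told apart in it. The 6-library mean in MDTH, 6044 ± 3814 (SD, n = 6), was 4.04-fold that of PFC and 1.31-fold that of HPF. The fitted log2 difference of Adarb2 was 1.70 against PFC (SE 0.24) and 0.07 against HPF (SE 0.24, 95% interval -0.45 to 0.60), so on the log scale MDTH and HPF differed by less than the error.

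MDTH was above HPF for Adarb2 in 3 of the 4 name numbers that could be compared. Within them, the MDTH level was 1.48-fold, 2.13-fold and 2.10-fold the HPF level in high performers 44, 88 and 165, and 0.534-fold in low performer 163. In order of group means, MDTH high performers at 9120 came before HPF high performers at 4797, HPF low performers at 4454, MDTH low performers at 2969, PFC low performers at 1717 and PFC high performers at 1277. The first and the second of these groups did not overlap, the next 3 steps down overlapped, and the last did not.

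Adar, the gene for ADAR1, varied least and in MDTH lay the other way from the other two. The MDTH high performers held 12556, 11192 and 12084 normalized counts and the low performers 14934, 14239 and 13742. All low performers lay above all high performers, as they did for 22% of genes tested in MDTH. The low performer mean of 14305 ± 598 was 1.198-fold above the high performer mean of 11944 ± 693 (SD, n = 3 each), a log2 difference of -0.26 with a standard error of 0.08. Chrnb2, which overlaps Adar on the other strand, was at 10940, 12614 and 13596 in MDTH high performers and at 12697, 10900 and 10340 in MDTH low performers, so its groups overlapped.

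The PFC libraries held 11673, 11744 and 11376 normalized counts of Adar in high performers and 12202, 9209 and 10490 in low performers. The HPF libraries held 8630, 8609 and 6784 in high performers and 9002, 9112 and 8122 in low performers. The groups overlapped in both tissues. The log2 difference was 0.13 in PFC (SE 0.11, 95% interval -0.12 to 0.39, limma adjusted p = 0.485) and -0.13 in HPF (SE 0.11, 95% interval -0.40 to 0.13, limma adjusted p = 0.647). The PFC value was 0.24 without PFC low performer 1 and 0.036 without PFC low performer 2, and the HPF value -0.019 without HPF high performer 3. Adar was lower in HPF than in PFC, by -0.41 in log2 (SE 0.07, 95% interval -0.56 to -0.25, limma adjusted p = 0.000285), with all 6 HPF libraries below all 6 PFC libraries, as for 11.8% of genes, and a 1.33-fold difference of the means. Its mean in MDTH was 1.18-fold that of PFC and 1.57-fold that of HPF, with fitted log2 differences of 0.24 (SE 0.07) and 0.65 (SE 0.07). Chrnb2 was at 10340 to 13596 normalized counts in MDTH, at 3887 to 4525 in PFC and at 2990 to 3708 in HPF. The part of Chrnb2 reads in the tissue differences of Adar was not tested.

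Whether the effect of performance differed between HPF and PFC was tested for each gene as an interaction, and 9.14% of all genes passed. None of the 3 did. The HPF effect minus the PFC effect was -0.26 for Adarb1 (limma adjusted p = 0.581), -0.27 for Adar (limma adjusted p = 0.284) and 0.60 for Adarb2 (limma adjusted p = 0.492). With 1 library left out, these values ran from -0.41 (without HPF high performer 2) to -0.11 (without HPF high performer 3) for Adarb1. For Adar they ran from -0.37 (without PFC low performer 1) to -0.15 (without HPF high performer 3), and for Adarb2 from 0.36 (without HPF low performer 1) to 0.85 (without HPF low performer 3).

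Levels of different genes were compared per kilobase of the longest annotated transcript, which has 5909 bases for Adar, 6662 for Adarb1 and 6721 for Adarb2. In PFC, Adar and Adarb1 were close to equal, at 47.3% and 48.2% of the summed level per kilobase in high performers and 45.7% and 47.8% in low performers. Adarb2 made up 4.57% and 6.49%. In MDTH, Adarb1 was the main transcript of the family, at 80.4% in high and 65.6% in low performers, against 11.7% and 29.1% for Adar. In HPF, Adarb1 came to 46.6% and 48.4% in high and low performers, Adar to 34.9% and 35.6%, and Adarb2 to its largest shares, 18.4% and 15.9%. The ratio of Adarb1 to Adar per kilobase was 6.86 in MDTH high and 2.26 in MDTH low performers, 1.33 and 1.36 in HPF, and 1.02 and 1.05 in PFC. With the union of exons as the length, the PFC ratios fell to 0.83 and 0.85, so the order of the 2 genes in PFC rests on the length used.

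**Figure D2:**
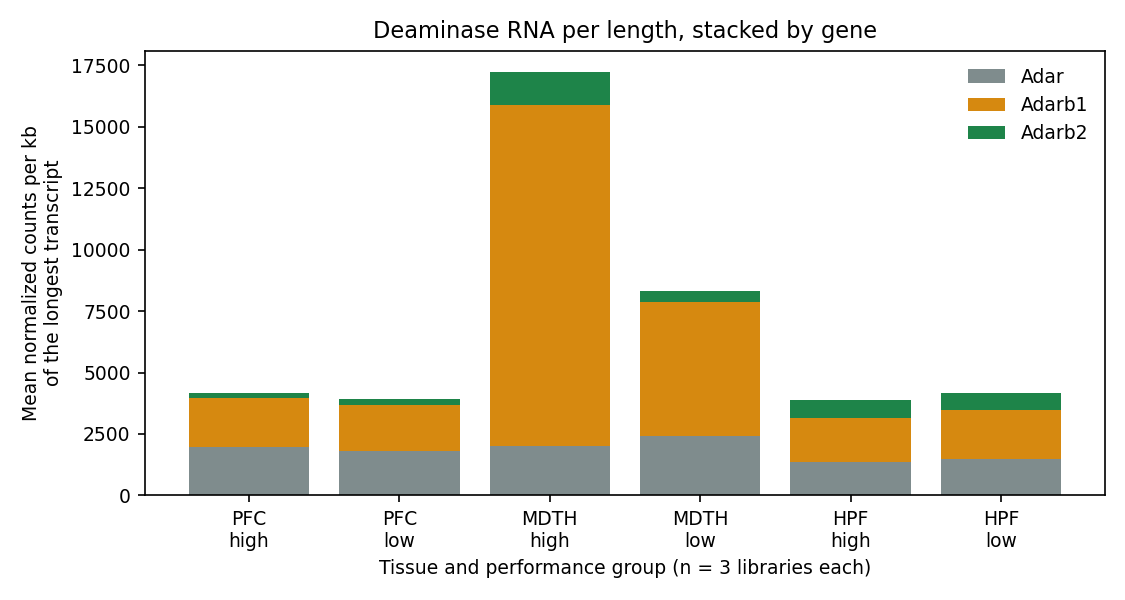
Mean normalized counts per kilobase of the longest transcript (linear scale from 0) of Adar, Adarb1 and Adarb2, stacked, in the 6 groups of 3 libraries, with no error bars. Adarb1 makes up 80.4% of the stack in MDTH high performers and 65.6% in MDTH low performers, against 46.6% to 48.4% in the other 4 groups.

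The ratio of Adarb1 to Adar within a library does not depend on how libraries were scaled. In normalized counts it was 6.84, 8.06 and 8.34 in MDTH high performers and 3.46, 1.98 and 2.14 in MDTH low performers. The log2 difference was 1.66. Adarb1 was chosen for its rise there, so the MDTH ratio describes that choice and was not tested. In PFC the log2 ratio was 0.20 ± 0.08 (SD, n = 3) for high performers and 0.25 ± 0.17 (SD, n = 3) for low performers, a difference of -0.05 (two-sided exact permutation p = 0.8). In HPF it was 0.58 ± 0.16 and 0.62 ± 0.06, a difference of -0.04 (two-sided exact permutation p = 0.7). The ratio of Adarb2 to Adar differed by 2.09 in MDTH, by -0.58 in PFC (two-sided exact permutation p = 0.1) and by 0.29 in HPF (two-sided exact permutation p = 0.4). With 3 libraries against 3 the smallest p possible is 0.1, so no ratio test could pass, and p-values adjusted over the 4 tests would be no smaller.

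Markers of other cells moved with performance in MDTH, and in bulk tissue fewer cells of a type and less RNA per cell cannot be told apart. The 10 thalamic relay neuron markers summed to 290780, 337324 and 337527 normalized counts in high performers and to 211153, 138221 and 138853 in low performers. Of the 10, 7 were higher and 1 lower past the limma threshold, the lower one being Tcf7l2, against 25% of all genes called in MDTH, and the median log2 difference of the list was 1.01 against 0.00 over all genes tested. As a share of that sum, Adarb1 was 29.6%, 26.8% and 29.9% in high performers and 24.5%, 20.3% and 21.2% in low performers. These shares hold the MDTH values that chose Adarb1 and did not overlap, though they lay closer together than the levels did. Adarb2 was 2.48%, 3.21% and 2.76% of the sum in high performers and 2.58%, 1.19% and 1.30% in low performers, and these shares overlapped. Against Slc17a6 alone, the glutamate transporter of thalamic neurons, the ratio of Adarb1 was 1.71, 1.64 and 2.00 in high and 1.499, 0.775 and 0.917 in low performers.

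Markers of cells other than relay neurons also differed between the MDTH groups, in lists to be read against the 25% of all genes that passed there. The 8 habenula markers summed to 1318 to 1901 normalized counts in high performers and to 3546, 9588 and 28251 in low performers, with 3 lower past the threshold. Gad2, which makes the transmitter GABA, was at 437 to 536 in high and at 9547, 2839 and 2457 in low performers. The 11 inhibitory neuron markers summed to 23263 to 26835 in high and 25936 to 48352 in low performers, with 3 of 8 tested lower. The caudal interneuron markers summed to 17743 to 22856 in high and 23090 to 26205 in low performers, with 1 of 9 tested higher and 3 lower. Against PFC, 7 of the 10 were lower in MDTH and 3 higher past the limma threshold, with 40.7% of all genes called. Vip was at 12.7 to 23.6 in MDTH against 1922 to 3500 in PFC, and Lamp5 at 59.2 to 266 against 3395 to 8322. The MDTH sum thus holds little of either. The 8 cortical excitatory markers summed to 24518 to 30826 in high and 10844 to 19049 in low performers, with no overlap and 1 of 8 called, higher. Of 7 astrocyte markers, 2 were lower, Gfap and Aqp4, and of 6 oligodendrocyte markers 1, Mbp. The sums of both lists overlapped, at 199596 to 254961 and 218172 to 230199 for astrocytes and at 254031 to 281743 and 280369.5 to 326699 for oligodendrocytes, high before low performers. Among hippocampal markers, 2 of 7 tested were lower, Fibcd1 and C1ql2, and 0 were higher. Fibcd1 was at 410, 189 and 152 in high and at 649, 1790 and 2295 in low performers. Both genes had all high performers below all low performers, as for 22% of genes tested in MDTH. The 8 hippocampal markers summed to 14275 to 19737 in high and 13959 to 15640 in low performers, which overlapped. None of these markers was at 0 in a whole group. The part of these cells in the Adarb1 and Adarb2 differences was not tested.

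**Figure D3:**
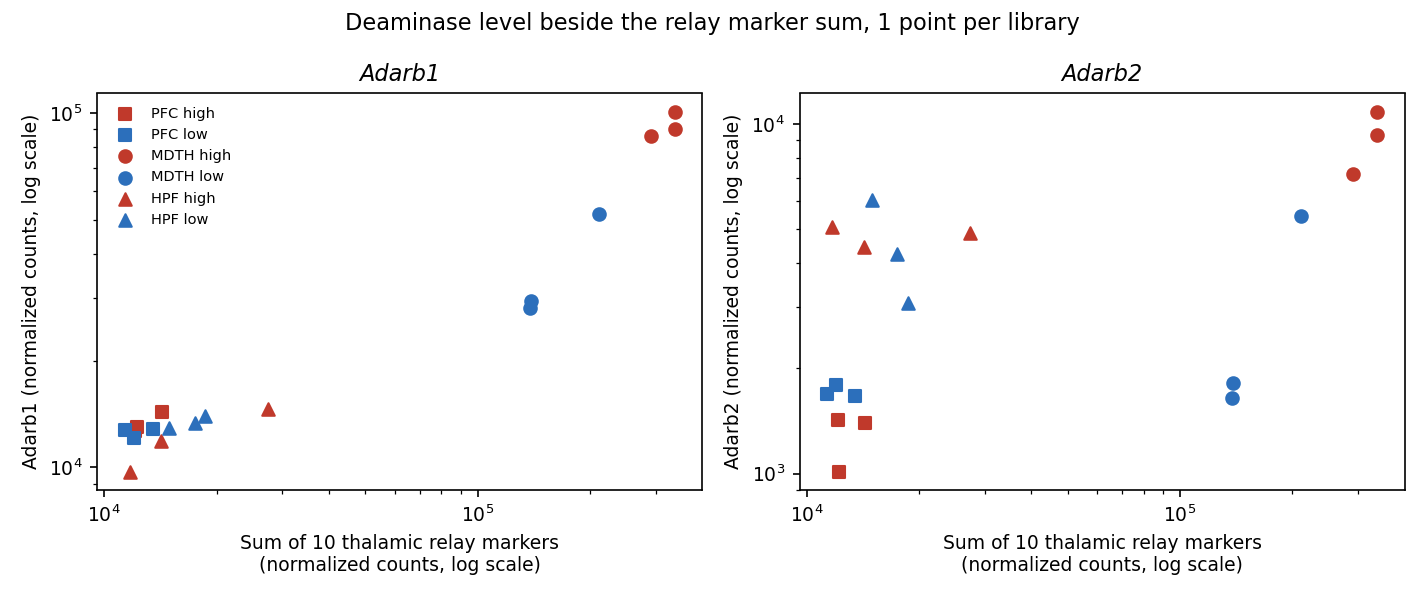
Normalized counts of Adarb1 and Adarb2 (log scale) against the summed normalized counts of 10 thalamic relay neuron markers (log scale), 1 point per library, with tissue by shape and performance by colour. The 3 MDTH high performers lie at the upper right of both panels, and MDTH low performer 1, with a marker sum of 211153, lies between them and the other 2 MDTH low performers.

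Over the 18 libraries, the genes whose log2 levels followed each member most closely were found among 15022 genes by Pearson correlation, given as a description, since tissue sets most of the spread. For Adarb1 these were Agfg1 (r = 0.986), Xylt2 (0.985), Fads6 (0.979), Pdp1 (0.977) and Adamts15 (0.977). Agfg1 had all MDTH high performers above all MDTH low performers, as for 22.2% of genes tested there. Agfg1 was picked for following Adarb1 over these same libraries, so this split is no separate result. It was at 12273, 14259 and 14157 normalized counts in high performers and at 10302, 6807 and 7484 in low performers. For Adarb2 they were Tiam1 (0.946), Ogfr (0.938), Pde1b (0.911), Gpr12 (0.900) and Kcnab1 (0.900). Gpr12, an orphan receptor gene, was at 2388, 3118 and 2993 in MDTH high performers, at 1917, 1325 and 1251 in MDTH low performers, at 1424 to 1649 in HPF and at 501 to 757 in PFC. For Adar they were Magee1 (0.946), Nkrf (0.945), Plcxd2 (0.945), Lrsam1 (0.943) and Clcn6 (0.939). Among the members themselves the correlation was 0.588 for Adarb1 with Adarb2, 0.585 for Adar with Adarb1 and -0.24 for Adar with Adarb2.

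The transcripts that ADAR enzymes recode moved in both directions in MDTH. Of 24 listed targets of recoding, 7 were higher and 3 lower in high performers past the limma threshold, 41.7% of those tested against 25% of all genes in MDTH, with a median log2 difference of 0.21 against 0.00 over all genes. The count of 10 fell to 6 without MDTH high performer 1 or 3 and to 3 without MDTH low performer 2 or 3. Gria3, an AMPA receptor subunit edited near its ligand-binding domain, was at 8218, 11803 and 10315 normalized counts in high performers and at 5722, 3520 and 3760 in low performers. The log2 difference of Gria3 was 1.24 (limma adjusted p = 0.0087). All high performers lay above all low performers, as for 22.2% of genes tested in MDTH. Nova1, a neuronal splicing factor, was at 2614, 2437 and 2138 in high and 4818, 6032 and 4549 in low performers, a log2 difference of -1.09 (limma adjusted p = 0.0040). Azin1, a regulator of polyamine synthesis, was at 12018, 12794 and 13244 in high and 9827, 9183 and 7856 in low performers, a log2 difference of 0.51 (limma adjusted p = 0.0130). The calls of Gria3, Nova1 and Azin1 held in all 15 alternatives.

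Other targets in MDTH passed by less. Htr2c, whose edited sites are printed above, was at 9978, 11965 and 9757 in high and 13069, 15758 and 15028 in low performers, a log2 difference of -0.47 (limma adjusted p = 0.0231). Gria4, a further AMPA receptor subunit, rose by 0.48 (limma adjusted p = 0.0457), Cacna1d, a calcium channel, by 0.34 (limma adjusted p = 0.0374), and Blcap, a small membrane protein, fell by 0.29 (limma adjusted p = 0.0241). These 4 calls were lost without either of MDTH low performers 2 and 3, and each also without at least 2 of the other libraries. The adjusted p then reached 0.0821 for Htr2c, 0.139 for Gria4, 0.107 for Cacna1d and 0.0822 for Blcap. None of the 4 passed without the mean-variance trend, and Htr2c was also far from passing with all 18 libraries in the fit (limma adjusted p = 0.613).

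Gria2, the ADAR2 target printed above, did not pass in MDTH. It was at 13219, 11120 and 11672 normalized counts in high performers and at 13533, 14375 and 13042 in low performers, which overlapped, with a log2 difference of -0.19 (95% interval -0.39 to 0.02, limma adjusted p = 0.157). Another 5 targets did not pass there either: Grik2 at 0.36 (limma adjusted p = 0.0818), Kcna1 at 0.28 (0.154), Cyfip2 at 0.21 (0.223), Gabra3 at 0.14 (0.490) and Grik1 at -0.02 (0.957).

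In PFC and in HPF, 0 of the 24 targets passed the limma threshold, and 7 in each had an unadjusted p below 0.05. Over all genes tested, 4337 of 17991 in PFC and 2399 of 18082 in HPF had such a p. The PFC target with the smallest adjusted p was Gria3, at 19264, 19446 and 18661 normalized counts in high and 16450, 13141 and 13907 in low performers, a log2 difference of 0.41 (limma adjusted p = 0.0570). In HPF the largest difference among targets was that of Htr2c, 1.57 (95% interval -0.46 to 3.61, limma adjusted p = 0.482). It rested on high performer 2, at 3084 normalized counts, against 180 to 323 in the other 5 libraries. Gabra3, a GABA receptor subunit, was at 1334, 2254 and 1663 in HPF high and 680, 887 and 641 in HPF low performers, a log2 difference of 1.23 (limma adjusted p = 0.1345).

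**Figure D4:**
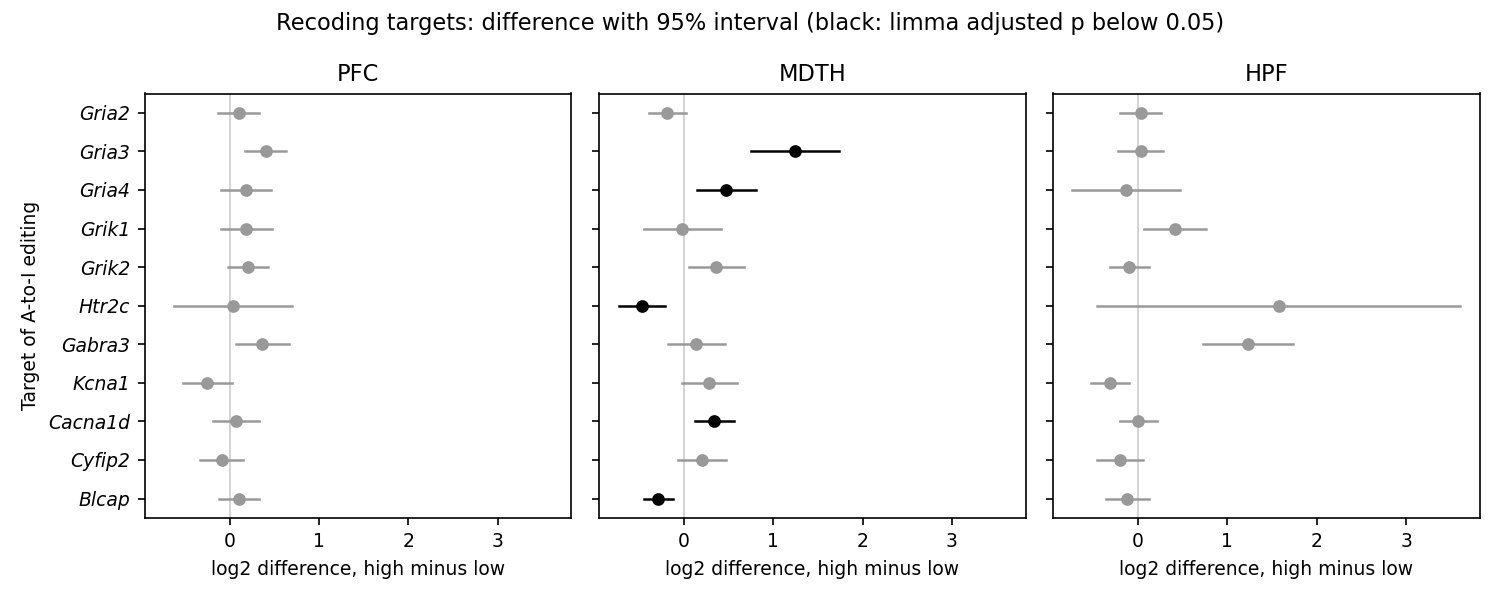
Log2 difference, high minus low performers, with its 95% interval for 11 targets of A-to-I editing in PFC, MDTH and HPF, in black where the limma adjusted p is below 0.05 and grey elsewhere. In MDTH, Gria3 at 1.24, Gria4 and Cacna1d lie above 0 and Htr2c and Blcap below it in black, and no target is black in PFC or HPF.

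Proteins that regulate ADAR activity or nuclear transport also moved both ways in MDTH. Of 21 tested modulators, 5 were higher and 3 lower, 38.1% against 25% of all genes, with a median of 0.00. The count of 8 fell to 4 without MDTH high performer 2 or 3 or low performer 2 or 3. Fmr1, an RNA-binding protein that binds ADAR enzymes, was at 4161, 4743 and 4548 normalized counts in high and 3279.5, 2785 and 3020 in low performers, a log2 difference of 0.57 (limma adjusted p = 0.0078). Sfpq, a paraspeckle protein, was at 5436, 6142 and 6542 in high and 10009, 8315 and 10016 in low performers, a log2 difference of -0.64 (limma adjusted p = 0.0085). Both calls held in all 15 alternatives. In PFC, 2 modulators were lower and 0 higher, 9.52% of 21 tested, against 5.85% of all PFC genes. These were Aimp2 at -0.65 (limma adjusted p = 0.0321) and Nono, the partner of Sfpq, at -0.45 (limma adjusted p = 0.0411). The Aimp2 call was lost without any PFC library but low performer 2, and the Nono call without any of the 6. In HPF, 0 of 21 passed the limma threshold and 1 had an unadjusted p below 0.05, as had 2399 of all 18082 genes tested.

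Sensors of double-stranded RNA and interferon genes, which ADAR1 is known to hold in check, passed the test in few cases in MDTH. Of 25 tested, 1 was higher and 2 lower, 12.0% against 25%, with a median log2 difference of -0.38 against 0.00 over all genes. The count of 3 fell to 1 without MDTH high performer 2, low performer 1 or low performer 3. Mavs, the adaptor of the RNA sensors, was at 348, 387 and 294 normalized counts in high and 642, 828 and 669 in low performers, a log2 difference of -1.05 (limma adjusted p = 0.0071) that held in all 15 alternatives. Irf9, a factor of the interferon response, was at 321, 272 and 445 in high and 672, 597 and 607 in low performers of MDTH, a log2 difference of -0.88 (limma adjusted p = 0.0199). In PFC, Irf9 was at 314, 308 and 251 in high and 556, 526 and 545 in low performers, a log2 difference of -0.90 (limma adjusted p = 0.0240). The PFC and MDTH high performers carry the same name numbers, 44, 88 and 165, and low performer 130 is in both tissues. The PFC and MDTH results therefore cannot be taken as independent. The Irf9 calls were lost without any of 4 MDTH libraries, all but high performers 1 and 3, and any of 5 PFC libraries, all but low performer 2. Stat2, the partner of Irf9, was lower in PFC by -0.60 (limma adjusted p = 0.0376), a call lost without the same 5 libraries. Ifit2, an interferon-induced gene, was higher in MDTH by 0.52 (limma adjusted p = 0.0356), a call lost without MDTH high performer 1 or 2 or low performer 1 or 3, with a common total, without the trend, and with all 18 libraries in the fit (limma adjusted p = 0.398). In PFC, 0 were higher and 2 of 26 lower, 7.69%, near the 5.85% of all PFC genes that passed, with a median of -0.33. Markers of microglia moved with these genes in PFC: 3 of 7, P2ry12, C1qa and C1qb, were lower in high performers, and the 7 summed to 10884 to 12984 in high and 13872 to 16841 in low performers. Their part in the result was not tested. In HPF, 0 of 25 passed the limma threshold and 1 had an unadjusted p below 0.05, as had 2399 of all 18082 genes tested.

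The other nucleic acid deaminases showed no call in any tissue. Of the tRNA and testis adenosine deaminases, 2 were tested in PFC and MDTH and 3 in HPF, and 0 passed the limma threshold or had an unadjusted p below 0.05. Of the cytidine deaminases and their cofactors, 3 of 7 were tested in each tissue, Apobec1, Apobec3 and Rbm47, and 0 passed the limma threshold, with 1 at an unadjusted p below 0.05 in MDTH and 0 in PFC and HPF. Over all genes tested, 7078 of 17861 in MDTH, 4337 of 17991 in PFC and 2399 of 18082 in HPF had such a p.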

How the data were processed

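The authors deposited a signal for each gene in each library, counts that they had divided by normalization factors, here called normalized counts. The authors' tools STAR, Salmon and DESeq2 are listed with no version or role, per the submitters' processing notes. Library preparation used the TruSeq stranded mRNA chemistry, per the labels' protocols. Neither the genome build nor the annotation nor whether counting used strand is given in the sources used here. All 18 columns matched a sample and 0 were left over, and 48058 gene identifiers (99.2%) were found in GENCODE M21. Low values were whole reads, within 0.02, in 36.9% to 75.0% of cases, so reads could not be recovered and no count test was run.

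Each tissue was fitted alone with limma 3.58.1 in R 4.3.3 on log2(normalized count + 1), for genes with a mean of at least 10, with a mean-variance trend, two-sided, and Benjamini-Hochberg adjustment over all genes tested, with 0.05 as the threshold. This scale understates the change of low genes. Tissue differences and interactions came from 1 fit of 6 group means to all 18 libraries. Python 3.11.15, pandas 2.3.3, numpy 2.4.6 and matplotlib 3.10.9 prepared tables and figures, and the fits were tested on simulated data. Single values carry no counting interval, since depth is only estimated.

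The members and lists were chosen with earlier results of these data known. Genes were named by a rule: the 3 members, 11 recoding targets, from each pathway list the 3 genes with the smallest p in each tissue, described where they passed, and the 5 genes with the highest correlation with each member. Chrnb2 was added because its span overlaps exon sequence of Adar. Nothing in the labels says whether the libraries in a group are from different animals. The p-values then cover only the spread among libraries, which may be technical. Numbers inside the library names recur across tissues, and the deviations of all 11 pairs that share one correlated (r = 0.346 to 0.611). With them as a block (correlation 0.356) no call of the 3 genes changed. Alternatives were other pseudocounts, filters, scalings, no trend, all 18 libraries, blocks, and leaving out each library. Sequences are from GRCm38 with GENCODE M21 and from RefSeq promoters of GRCm38.p6, which held all 3 genes. The values of some listed genes are not reported here.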

Additional observations from a re-analysis of the deposited data

Results flagged for a closer look

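The log2 difference of Adarb2, high minus low performers, had opposite signs in PFC and MDTH. In PFC it was -0.44, with all 3 high performers below all 3 low performers, as for 13.8% of genes there, and it did not pass the test (limma adjusted p = 0.126). In MDTH it was 1.83, with all 3 high performers above all 3 low performers, as for 22.2% of genes there. The difference between the 2 effects was not tested, since the MDTH comparison was used to choose the genes.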

How the results depend on the processing

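For the 3 genes, no limma call in PFC, in HPF, between HPF and PFC or for the interaction changed under any alternative. Signs changed only near 0. The HPF minus PFC difference of Adarb1 turned to 0.017 with a common upper quartile, 0.055 with a common total and 0.025 with the replicate block of name numbers, and ran from -0.11 to 0.040 with 1 library left out, above 0 without HPF high performer 3. The HPF difference of Adarb2 ran from -0.080 to 0.41, below 0 without HPF low performer 1. Its MDTH minus HPF difference ran from -0.20 without MDTH low performer 1 to 0.23, and was -0.05 without HPF low performer 1. The MDTH difference of Grik1 ran from -0.19 to 0.12.

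With high performers alone and their name number as a replicate block, the MDTH minus PFC difference was 2.79 for Adarb1, 0.041 for Adar and 2.83 for Adarb2, and the MDTH minus HPF difference 2.95 for Adarb1 and 0.91 for Adarb2. This fit holds fewer samples and no low performers. The cause of the other changes was not tested.

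The replicate numbers of the titles did not pair the libraries, since the deviations of 9 same-numbered pairs correlated by -0.15 to 0.09 and none passed 0.1. As a replicate block they left 0 genes past the threshold in PFC, 2425 in MDTH and 0 in HPF. Of the recoding targets 6 then passed in MDTH, of the modulators 4 in MDTH and 0 in PFC, and of the double-stranded RNA and interferon genes 0 in PFC.

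Without the trend, 52 genes passed in PFC. The lists then gave 5 recoding targets and 5 modulators in MDTH, and 0 modulators and 0 interferon genes in PFC. With all 18 libraries in the fit, 2529 genes passed in PFC and 265 in HPF, with 1 recoding target and 6 modulators in PFC and 2 recoding targets in HPF. In HPF 6 genes passed with a pseudocount of 0.5, 11 without a filter, 6 with a mean of at least 100, 8 with a common upper quartile and 10 with a common total. In PFC 1 recoding target passed with the mean of at least 100 and with both rescalings, and 1 modulator without a filter.

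With 1 library left out, the number of genes past the threshold ran from 7 to 1306 in PFC, 1839 to 4223 in MDTH, 0 to 15 in HPF and 896 to 1818 for the interaction. The recoding targets ran from 0 to 1 in PFC and 3 to 8 in MDTH, the modulators from 0 to 2 and 4 to 9, and the interferon genes from 0 to 4 and 1 to 4.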
